A study of Mus musculus with 6 samples.

Results

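The seminal and prostatic secretory genes followed in sorted neonatal prostate cells were 10 genes that encode proteins of seminal and prostatic fluid, Svs1, Svs2, Svs3a, Svs3b, Svs4, Svs5, Svs6, Pip, Pbsn and Msmb. All probes whose gene name on the array was one of these 10 symbols were taken, 12 of the 55681 probes of the array. The genes were selected on measured values of the same arrays, in the comparison of LSC GFP+ with LSC GFP- cells, so their values in that comparison are given as a description and without a test. The samples came from untreated male FVB/N Tg 11.5kb-GFP mice aged 6 days, in which the s-SHIP promoter drives green fluorescent protein (GFP) in a subset of basal epithelial cells and also in vascular smooth muscle cells. Prostates were dissociated, cells bearing the lineage markers Ter119, CD31 or CD45 (Lin) were excluded, and Sca-1+ CD49f+ cells, together called LSC, were sorted as GFP+ or GFP-. Both populations carried the transgene, and 3 independent samples of each gave 6 one-colour arrays. Whether a sample pooled several animals is not stated in the labels, so the spread between samples may be in part technical. The question of the comparison was what distinguishes the GFP+ cells from the other basal cells of the same gate.

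Seminal vesicle secretory (Svs) proteins are made by the epithelium of the seminal vesicle, a gland that forms from the Wolffian duct beside the prostate, and they form a large part of the protein of seminal fluid. Svs2 is the main structural protein of the copulatory plug, which transglutaminase 4 of the prostate cross-links. Pbsn, or probasin, is a lipocalin of prostate luminal cells, Msmb, or beta-microseminoprotein, is secreted by the prostate, and Pip, or prolactin-inducible protein, is found in several exocrine secretions. Androgen raises most of these genes as the glands mature.

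All 6 arrays lay on the same slide and were read in the same scan. Between 36662 and 42132 probes per array were marked by the scanner software as well above background, and 37008 probes so marked throughout the 3 arrays of either population or of both entered the test. The sort markers Itga6, which encodes CD49f, and Ly6a, which encodes Sca-1, were above background on all 6 arrays. The basal keratins Krt5 and Krt14 and the homeobox gene Hoxb13 of the prostate were as well. Inpp5d encodes SHIP1, of which s-SHIP is a shorter form, and the probe read for it was above background on 0 of the 6 arrays. Ptprc, which encodes CD45, was above background on all 6 arrays, at log2 values between -1.54 and -1.39. So was Pecam1, which encodes CD31, at -3.61 to -2.86 in LSC GFP+ and -3.35 to -1.07 in LSC GFP- cells. Of 9 leukocyte markers 8 passed the filter described above, and Lyz2 was the only one above background on no array. The highest values, at means of 7.94 and 7.97, were those of the brightest of 3 tested Itgam probes. Each probe has its own scale, so that level does not measure leukocyte content. The smooth muscle markers differed between the populations, with a summed level over 8 genes, relative to the 75th percentile of an array, of 7.043 to 10.57 in LSC GFP+ and 20.04 to 38.48 in LSC GFP- cells. Lmod1 was the marker of that list at background on all arrays. The summed level of 11 stromal markers was 25.3 to 32.2 in LSC GFP+ and 24.9 to 66.4 in LSC GFP- cells. The part of these other cells in the values below was not tested, and in sorted bulk RNA fewer expressing cells and less RNA per cell cannot be told apart.

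Of the 10 genes 6, Svs2, Svs3b, Svs4, Svs3a, Svs6 and Svs5, have their probes within 98.4 kb of chromosome 2 (mm9 chr2:164061667-164160038). Svs1 and Pip lie on chromosome 6, Pbsn on X and Msmb on 14. The probes that carry the values below are shown first, because each measures only the transcript holding its 60 bases. They lie at mm9 chr2:164062555-164062614 (Svs2), chr2:164102838-164102897 (Svs4), chr2:164159979-164160038 (Svs5), chr6:41801874-41801933 (Pip) and chrX:75087855-75087914 (Pbsn), and exon annotation of that build was not used here.
Svs2 probe: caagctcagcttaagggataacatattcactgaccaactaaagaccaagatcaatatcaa
Svs4 probe: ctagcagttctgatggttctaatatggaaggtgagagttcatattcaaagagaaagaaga
Svs5 probe: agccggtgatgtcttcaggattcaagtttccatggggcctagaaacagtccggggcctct
Pip probe: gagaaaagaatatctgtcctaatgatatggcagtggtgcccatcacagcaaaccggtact
Pbsn probe: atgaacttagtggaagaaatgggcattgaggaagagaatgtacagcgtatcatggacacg

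The 250 bases before the annotated start of 6 members are shown because 4 of these genes are neighbours in 1 cluster and the other 2 are not. The sequences are those of RefSeq for C57BL/6J, read along the gene, whereas the mice were FVB/N. Capitals mark AGAACA or its reverse TGTTCT, the half-site of the androgen response element, AGATAA or TTATCT, a motif of GATA factors, and TATAAA or TTTATA, the TATA box.
Svs2 (GRCm38.p6 chr2:164238342-164238591, minus strand): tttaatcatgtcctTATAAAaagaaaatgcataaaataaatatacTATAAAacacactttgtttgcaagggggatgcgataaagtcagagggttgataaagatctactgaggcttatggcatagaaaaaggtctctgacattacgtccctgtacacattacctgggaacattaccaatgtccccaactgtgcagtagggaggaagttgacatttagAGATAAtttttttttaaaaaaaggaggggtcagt
Svs4 (GRCm38.p6 chr2:164278308-164278557, minus strand): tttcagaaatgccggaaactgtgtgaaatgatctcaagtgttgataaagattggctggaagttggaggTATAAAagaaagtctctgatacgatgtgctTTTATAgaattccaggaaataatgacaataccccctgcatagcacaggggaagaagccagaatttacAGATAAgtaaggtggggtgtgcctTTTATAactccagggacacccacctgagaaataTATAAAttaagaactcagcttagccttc
Svs5 (GRCm38.p6 chr2:164332515-164332764, plus strand): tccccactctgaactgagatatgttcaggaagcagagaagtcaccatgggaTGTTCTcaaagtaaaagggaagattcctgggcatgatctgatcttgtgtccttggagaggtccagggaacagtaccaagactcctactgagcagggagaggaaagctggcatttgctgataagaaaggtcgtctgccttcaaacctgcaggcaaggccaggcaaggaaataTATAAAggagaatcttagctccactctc
Svs6 (GRCm38.p6 chr2:164316501-164316750, plus strand): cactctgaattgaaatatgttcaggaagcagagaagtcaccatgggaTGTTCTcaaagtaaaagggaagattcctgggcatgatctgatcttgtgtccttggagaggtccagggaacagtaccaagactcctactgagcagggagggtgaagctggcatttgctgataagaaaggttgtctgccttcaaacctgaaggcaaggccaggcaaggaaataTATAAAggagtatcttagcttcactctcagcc
Pip (GRCm38.p6 chr6:41847299-41847548, plus strand): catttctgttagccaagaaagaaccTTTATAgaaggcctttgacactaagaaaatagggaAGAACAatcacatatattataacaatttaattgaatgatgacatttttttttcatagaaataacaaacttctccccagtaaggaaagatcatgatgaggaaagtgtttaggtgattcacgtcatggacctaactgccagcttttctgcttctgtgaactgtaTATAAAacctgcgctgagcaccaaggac
Pbsn (GRCm38.p6 chrX:77853501-77853750, minus strand): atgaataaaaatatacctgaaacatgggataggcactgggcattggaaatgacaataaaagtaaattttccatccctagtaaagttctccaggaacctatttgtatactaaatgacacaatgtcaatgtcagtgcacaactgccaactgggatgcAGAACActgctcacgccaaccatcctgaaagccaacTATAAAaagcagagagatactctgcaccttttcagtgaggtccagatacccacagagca

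Of the 9 members with an entry in the promoter table, all but Msmb, 7 held the androgen response half-site in these 250 bases, 4 the GATA motif and 8 the TATA box. Over all 32851 promoters of the table the shares in windows of the same length were 16.1%, 9.99% and 12.4%. The 9 are not all separate sequences. Svs3a and Svs3b (97.6% identical) are near copies with the same matches, as are Svs5 and Svs6 (93.3%). The TATA box lay 28 bases before the start in Svs3a, Svs3b, Svs4, Svs5 and Pip and 32 bases before it in Svs6. In Svs2 a GATA motif lay 34 bases before the start, and its TATA letters lay 205 and 236 bases before it. In Svs3a and Svs3b the half-site, 34 bases before the start, ran directly into the TATA box. A match describes letters and not a bound site.

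**Figure D1:**
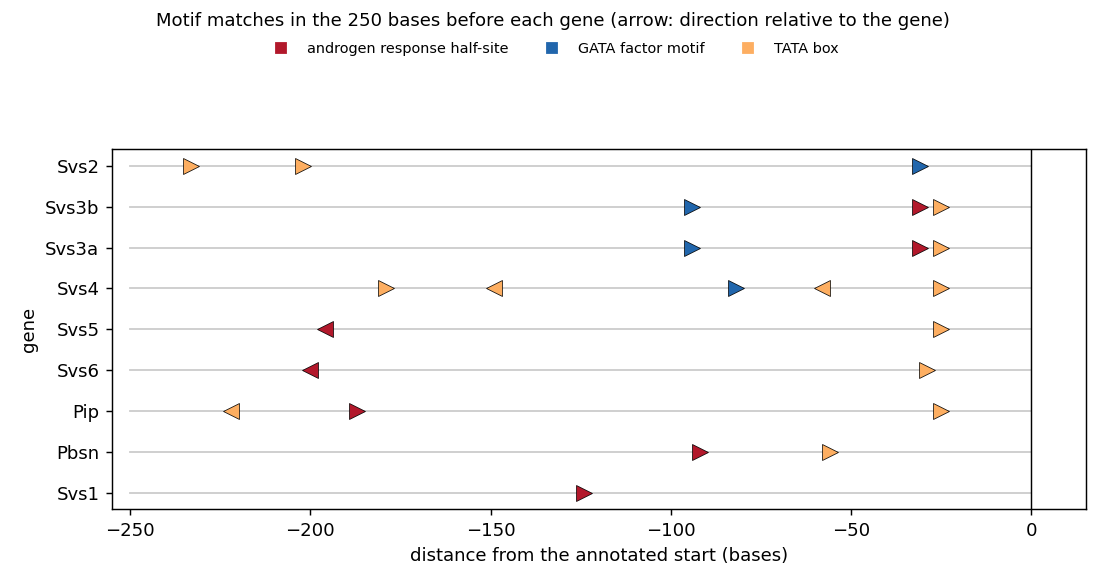
Matches to the androgen response half-site, the GATA motif and the TATA box in the 250 bases before each of 9 secretory genes, plotted by distance from the annotated start in bases, with arrows giving the direction relative to the gene. In 5 genes a TATA box lies 28 bases before the start, and Svs2 has none between its GATA motif, at 34 bases, and the start.

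The cluster held 2 pairs of near copies. In a global alignment, the upstream sequences of Svs3a and Svs3b were identical at 97.6% of aligned columns, and those of Svs5 and Svs6 at 93.3%. The other 13 pairs of the cluster ranged from 45.6% to 60.7%, beside 48.1% to 54.8% for the 21 pairs that involve Svs1, Pip or Pbsn. Svs5 and Svs6 did not share their detection on the arrays, since the Svs5 probe was well above background on 5 arrays and the Svs6 probe on 1. The probes of Svs3a and Svs3b were both at background on all arrays.

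Values are given as log2 of the signal after subtraction of the array's 75th percentile, so that 0 is the level of that percentile, and each probe has its own scale. With 1 probe each, 5 genes, Svs2, Svs4, Svs5, Pip and Pbsn, passed the filter. Of these probes 4 were above background on all 6 arrays. All 5 had a lower mean in LSC GFP+ cells, and the median of their log2 differences was -1.28, beside -0.01 over the 25616 genes tested, a contrast that the choice of the genes already uses. Svs5 passed only through the LSC GFP- arrays, where it was higher, so the filter itself favours its lower values in LSC GFP+ cells. With the filter on all 6 arrays, which Svs5 does not pass, the median was -1.22. In 2 of the 5, Svs5 and Pip, the populations did not overlap, and 5.65% of all tested probes were lower in LSC GFP+ cells without overlap.

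Svs4, a small basic secretory protein, had log2 values of -0.18, 1.77 and 2.13 in LSC GFP+ replicates 1, 2 and 3 and of 1.72, 2.78 and 3.06 in LSC GFP- replicates 1, 2 and 3. Replicate 1 was the lowest of its population in both, and the populations overlapped because LSC GFP- replicate 1 lay below LSC GFP+ replicates 2 and 3. The means were 1.24 ± 1.24 (SD, n = 3) and 2.52 ± 0.71 (SD, n = 3), a log2 difference of -1.28 or 2.43-fold, and without LSC GFP+ replicate 1 the difference was -0.57. On the linear scale the scanner signal of this probe ran from 353 in LSC GFP+ replicate 1 to 3520 in LSC GFP- replicate 3.

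Svs2 had values of -3.34, -2.14 and -1.34 in LSC GFP+ and of -2.23, -0.69 and -0.42 in LSC GFP- cells. Replicate 1 was again the lowest in both populations, and the populations overlapped. The mean log2 difference was -1.16, or 2.24-fold, against SDs of 1.01 and 0.98 (n = 3 each). Within the replicate numbers the spread was smaller, with differences of -1.11, -1.45 and -0.92 for replicates 1, 2 and 3 and an SD of 0.26. Without LSC GFP+ replicate 1 the difference of means was -0.63, and with normexp background correction it was -0.75. A second Svs2 probe stayed at background throughout.

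Svs5, the cluster member at the far end from Svs2, had values of -5.09, -3.49 and -3.64 in LSC GFP+ and of -2.34, -1.86 and -1.54 in LSC GFP- cells. All LSC GFP+ values lay below all LSC GFP- values, and LSC GFP+ replicate 1 was not above background. The mean log2 difference was -2.16, or 4.47-fold, with SDs of 0.88 and 0.40 (n = 3 each), and it was -1.65 without LSC GFP+ replicate 1. With normexp background correction the difference was -0.95, with scanner signals of 11.7, 44.2 and 33.0 on the LSC GFP+ arrays.

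Pip had values of -2.34, -3.04 and -1.88 in LSC GFP+ and of -0.97, -1.59 and -0.33 in LSC GFP- cells. The populations did not overlap, and replicate 2, not replicate 1, was the lowest of each. The log2 differences within replicates 1, 2 and 3 were -1.36, -1.45 and -1.55, with a mean of -1.46 ± 0.10 (SD, n = 3), or 2.74-fold (-0.92 with normexp background correction), so the pairs differed by far less than the samples of a population, whose SDs were 0.58 and 0.63.

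Pbsn had values of -3.23, -2.48 and -2.63 in LSC GFP+ and of -2.61, -2.01 and -3.01 in LSC GFP- cells. The populations overlapped, and replicate 3 was higher in LSC GFP+ cells while replicates 1 and 2 were lower there. The mean log2 difference of -0.24 was smaller than the SDs of 0.40 and 0.51 (n = 3 each), and without LSC GFP- replicate 2 it was 0.03. The second Pbsn probe was not above background on any array.

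The other 5 genes did not pass the filter. Msmb was above background only on LSC GFP- replicate 3, at a log2 value of -3.60, and its other 5 values lay between -6.70 and -4.60. Svs6 was above background only on LSC GFP+ replicate 1, at -3.83, the array on which its near copy Svs5 was not above background. Svs1, an amine oxidase relative, and Svs3a and Svs3b stayed at background on the 6 arrays, with values between -6.70 and -4.72. No fold is given for these 5 genes.

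**Figure D2:**
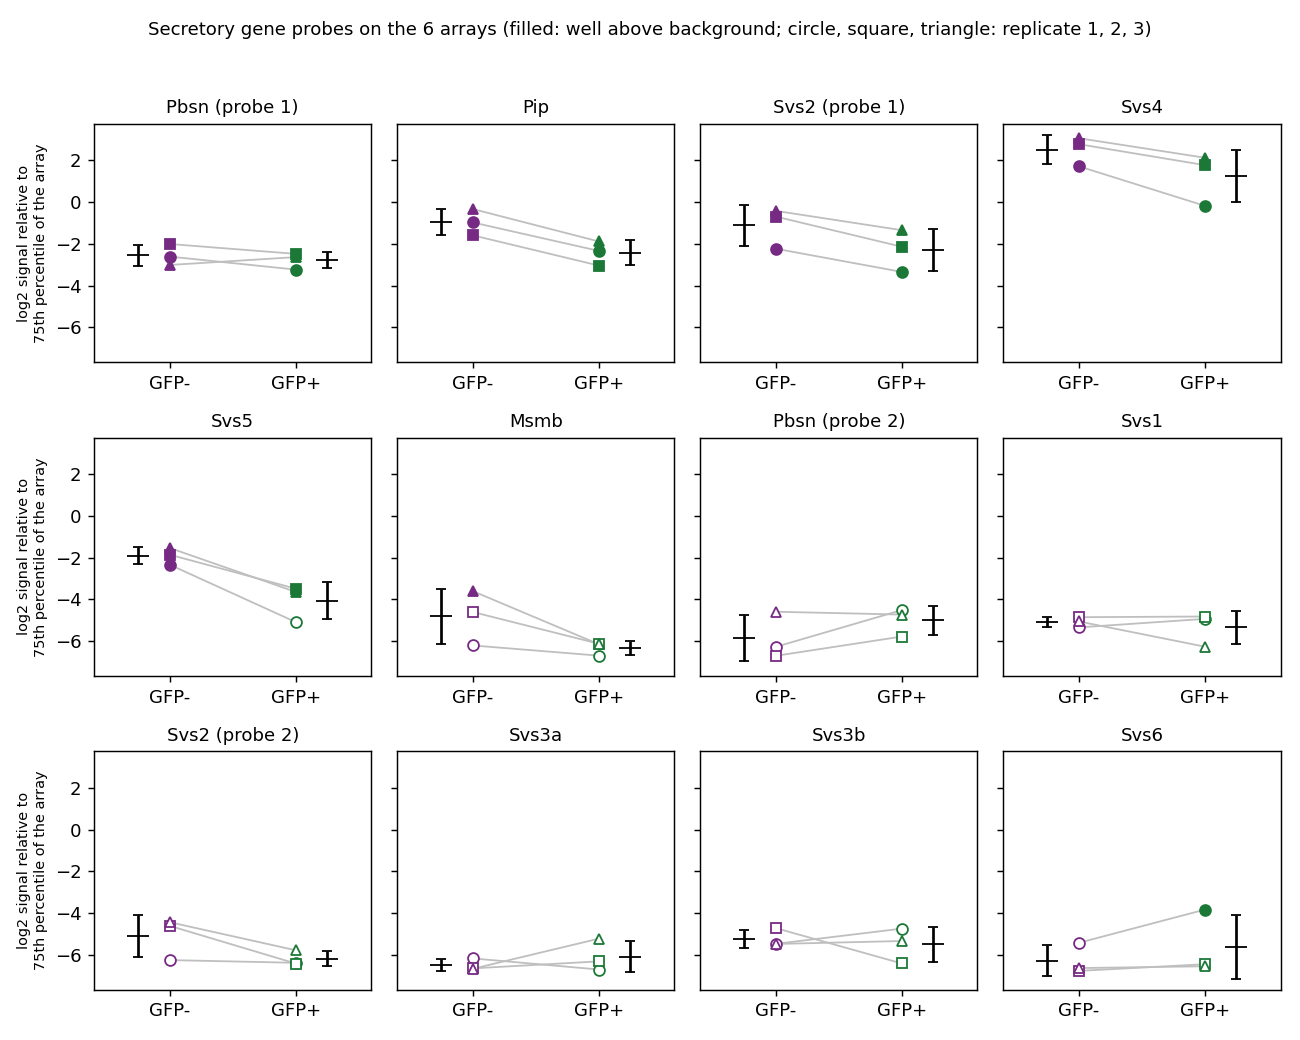
Log2 signal relative to the 75th percentile of the array for the 12 probes of the 10 genes, with LSC GFP- on the left and LSC GFP+ on the right of each panel, filled symbols for arrays where the probe was well above background, grey lines joining the same replicate number, and bars for the mean and SD of 3 samples. The lines fall from GFP- to GFP+ in all 3 replicates of Svs2, Svs4, Svs5 and Pip, while the lines of Pbsn cross.

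The replicate numbers were taken as pairs, although the labels do not say what samples of the same number share. LSC GFP+ cells were lower in all 3 pairs for 4 of the 5 genes, among them Svs5, which passed only through the LSC GFP- arrays. Of all tested probes 17.1% were lower in all 3 pairs. Across the 6 arrays Svs2 and Svs4 followed each other with r = 0.97, Svs4 and Svs5 with r = 0.90, and Svs2 and Svs5 with r = 0.84. After the mean of each population was subtracted the same 3 values were 0.95, 0.97 and 0.85, so the cluster genes varied together between samples of a population as well. Pip followed them less, with r of 0.55 to 0.73, and of -0.01 to 0.21 after the population means were subtracted. These r describe 6 arrays that share replicate numbers and amplification and carry no p.

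The 7 tested smooth muscle markers had a median r of 0.90 with Pip over the 6 arrays. Acta2, which encodes smooth muscle actin, had 0.91. Of the 7, 5 had r above 0.8 with Pip, and the lowest r was -0.29. The 10 tested stromal markers had a median r of 0.79 with Pip, with 5 above 0.8 and a lowest r of -0.81. In lists described below, Sval1, Klk1, Clu, Tmprss2 and Cldn3 also had r above 0.8 with Pip, as did 3.26% of all genes. The median r of the smooth muscle markers was 0.70 with Svs5, 0.41 with Svs4 and 0.38 with Svs2. After the population means were subtracted Acta2 had -0.39 with Svs2, -0.41 with Svs4 and 0.67 with Pip. Tagln, Cnn1, Des and Actg2 then had 0.60 to 0.68 with Pip, whereas Myh11 had -0.34 and Smtn -0.27. Whether other cells contributed to the Pip signal was not tested.

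Of 16 other secreted proteins of the seminal vesicle and prostate, 12 passed the filter. By limma at an unadjusted p under 0.05, Clu was lower and Acp3 higher in LSC GFP+ cells, where 4.53% of all tested probes were lower and 3.37% higher. None passed after adjustment over all probes, the lowest adjusted p in limma being 0.302, and 0.0027% of all probes passed. The median log2 difference of the 12 genes was -0.19, beside -0.01 over all genes.

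Clu, which encodes clusterin, a secreted chaperone, had log2 values of 2.28, 2.95 and 3.73 in LSC GFP+ and of 4.0, 4.35 and 4.74 in LSC GFP- cells. The populations did not overlap, as for 5.65% of all tested probes in this direction, and the difference was -1.38 ± 0.38 (SE, limma unadjusted p = 0.00688, adjusted p = 0.302). Acp3, prostatic acid phosphatase, had -1.90, -1.48 and -2.17 in LSC GFP+ and -2.71, -2.46 and -2.54 in LSC GFP- cells. It was higher in every LSC GFP+ sample, by 0.72 ± 0.23 (SE, limma unadjusted p = 0.0149, adjusted p = 0.406).

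Pate4, also called Svs7, a small seminal vesicle protein encoded away from the cluster, had -3.69, -0.78 and -0.22 in LSC GFP+ and -1.13, 0.24 and 0.79 in LSC GFP- cells. The populations overlapped, replicate 1 was the lowest of each, and r with Svs4 over the 6 arrays was 0.99. The difference of -1.53 ± 0.89 (SE) did not pass in limma (unadjusted p = 0.124), and with the replicate number as a block it did (unadjusted p = 0.00739). Spinkl, a Kazal-type inhibitor relative of the seminal vesicle, had a difference of -1.17 (limma unadjusted p = 0.145, with the block 0.00683) and r of 0.97 with Svs2. Sval1 had a difference of -0.64 and did not overlap between populations (limma unadjusted p = 0.063, with the block 0.0173). With the block 4 of the 12 genes were thus lower, Clu, Pate4, Spinkl and Sval1, and Acp3 remained higher, with 0 of the list after adjustment. Of all 37008 probes tested, 8.05% were lower and 6.74% higher with the block at an unadjusted p under 0.05.

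The other 7 tested genes of the list did not pass either way. Transglutaminase Tgm4 differed by 0.02, with a second tested probe at -0.22. The serpin Serpine2 differed by -0.03, Sva by -0.09, Spink1 by -0.16, Azgp1 by -0.22, Klk1 by -0.28 and the seminal vesicle glycoprotein gene Ceacam10 by 0.65. Ceacam10 did not overlap between populations and was higher in LSC GFP+ cells (limma unadjusted p = 0.0613, with the block 0.0527). Sval2 and Sval3 were at background on all arrays, and Sbp and Slpi passed on too few. Of the 7 tested genes all but Azgp1 were above background on all 6 arrays.

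**Figure D3:**
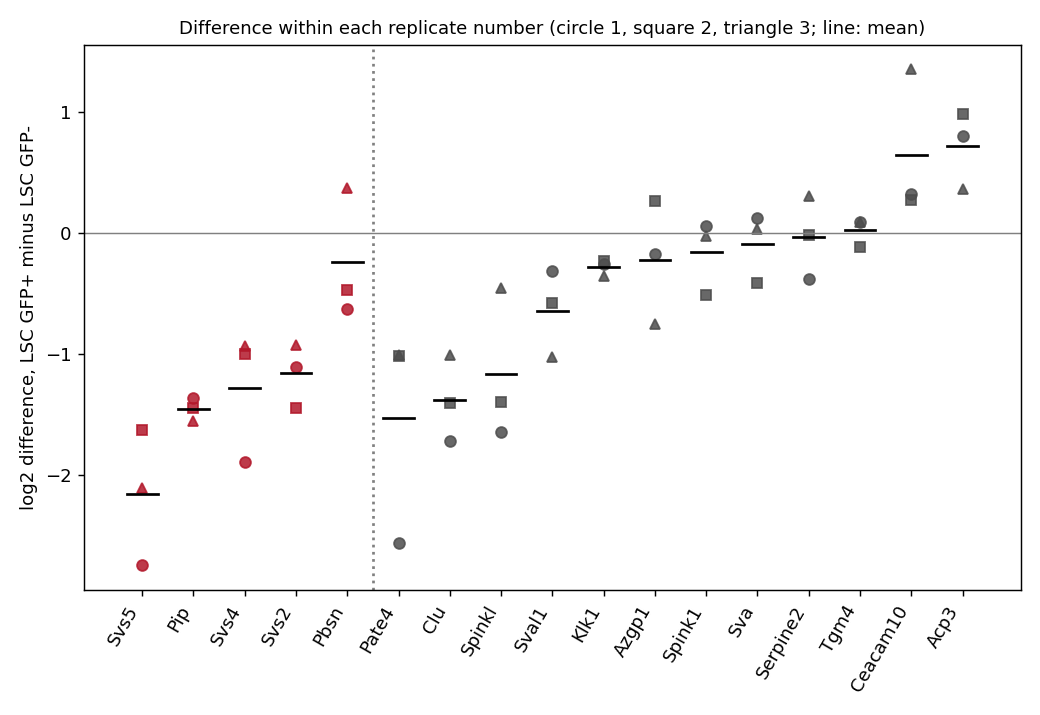
Log2 difference of LSC GFP+ minus LSC GFP- within each replicate number, with circles, squares and triangles for replicates 1, 2 and 3 and a line at the mean, for the 5 secretory genes that passed the filter (red, left) and 12 other secreted proteins (grey, right). Svs2, Svs4, Svs5, Pip, Pate4, Clu, Spinkl, Sval1 and Klk1 lie below 0 in all 3 replicates, and Ceacam10 and Acp3 lie above it.

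Around the cluster, 10 genes on each side in the order of the RefSeq table were examined, and 12 of these 20 passed the filter. Wfdc15b, a protease inhibitor of the WAP family 22.4 kb before the Svs2 probe, had -1.18, -0.16 and 0.997 in LSC GFP+ and 0.79, 1.14 and 1.78 in LSC GFP- cells. LSC GFP+ replicate 3 lay within the range of the LSC GFP- samples, and the difference was -1.35 ± 0.52 (SE, limma unadjusted p = 0.0333, adjusted p = 0.548). Its neighbour Wfdc15a had -1.30, -0.79 and 0.41 in LSC GFP+ and -0.09, 0.55 and 1.103 in LSC GFP- cells. The populations overlapped, and the difference was -1.08 (limma unadjusted p = 0.0513, with the replicate block 0.00182). Over the 6 arrays Wfdc15a had r of 0.95 with Svs2, and Wfdc15b had r of 0.94 with Svs4.

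None of the other 10 tested neighbours passed in limma without the block. By the brightest probe of each gene they differed by between -0.22 and 0.46, with Wfdc12, 46.7 kb before Svs2, at -0.13 and Matn4, 152.6 kb beyond it, at -0.22. Dimmer tested probes gave -1.15 ± 0.68 for Sys1 (SE, limma unadjusted p = 0.129, above background on 5 arrays), 0.47 for Matn4 and -0.31 for Dbndd2. With the replicate block, in which 8.05% of all probes were lower and 6.74% higher, Wfdc15a and Wfdc15b were lower and Sdc4, a syndecan, was higher (limma unadjusted p = 0.0187), and 0 passed after adjustment. The 5 genes at or near the cluster that passed the filter with a difference below -1, Wfdc15a, Wfdc15b, Svs2, Svs4 and Svs5, were not a row of direct neighbours, since Svs3b and Svs3a, at background on all arrays, and Svs6, above it on 1, lie between them.

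**Figure D4:**
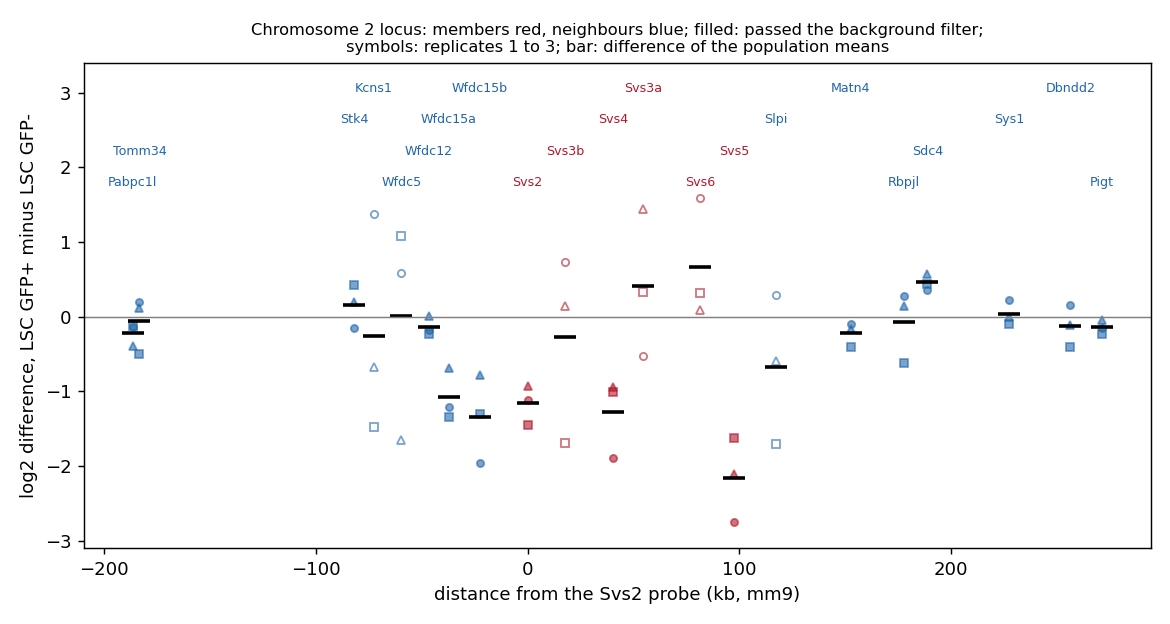
Log2 difference of LSC GFP+ minus LSC GFP- against distance from the Svs2 probe in kb (mm9), with members in red, neighbours in blue, filled symbols for probes that passed the filter, small symbols for replicates 1 to 3 and black bars for the difference of means. Wfdc15a, Wfdc15b, Svs2, Svs4 and Svs5 lie below -1, and the other neighbours that passed, each drawn by its brightest probe, lie between -0.22 and 0.46.

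Genes of the Wolffian duct, from which the seminal vesicle forms, were compared as a list of 11. All of them passed, Ret through the LSC GFP- arrays alone. The list was written with earlier results of these data known, so its counts serve as a description. In limma at an unadjusted p under 0.05, 5 were lower in LSC GFP+ cells, Pax2, Pax8, Emx2, Hoxd9 and Ret, and Hoxa9 and Hoxa10 were higher, with a lowest adjusted p of 0.197. At that threshold 4.53% of all tested probes were lower and 3.37% higher. With the filter on all 6 arrays, which Ret does not pass, 4 genes of the list were lower. Pax8, a transcription factor of the duct epithelium, had -2.47, -2.17 and -1.14 in LSC GFP+ and -0.66, -0.36 and 0.06 in LSC GFP- cells. The populations did not overlap, as for 5.65% of all tested probes in this direction, and the difference was -1.61 ± 0.37 (SE, limma unadjusted p = 0.00244). Emx2, a homeobox gene of the urogenital tract, had the same mean difference of -1.61 (limma unadjusted p = 0.0173) and r of 0.97 with Svs4.

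Hoxd9 differed by -1.02 (limma unadjusted p = 0.0206) with r of 0.97 with Svs2, although its populations overlapped, and Pax2 by -1.10 (limma unadjusted p = 0.00794). Ret, the receptor for GDNF in the duct, was above background in every LSC GFP- sample but in no LSC GFP+ sample, and was at least 2.01-fold lower in LSC GFP+ cells (limma adjusted p = 0.351). That bound sets the mean of the LSC GFP- arrays against, for each LSC GFP+ array, the higher of the probe's own signal and the lowest signal marked well above background. Hoxa9 and Hoxa10 were higher by 0.72 and 0.60 (limma unadjusted p = 0.0153 and 0.0244), and Lhx1 differed by 0.11. The median of the list was -0.25. Of its 11 genes 4 had r above 0.8 with Svs2 (Pax2, Pax8, Emx2 and Hoxd9), and 0 with Pbsn, while 5.6% of all genes had such an r with Svs2. Others of the list ran the opposite way, with r with Svs2 of -0.94 for Hoxd10 and -0.85 for Hoxa9, and the median over the 11 was 0.16.

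Of 17 luminal and androgen-responsive genes, all passed. In limma, LSC GFP+ cells had higher levels of 3 and lower levels of 3 (unadjusted p under 0.05), none of which held after adjustment (lowest adjusted p = 0.329), with a median of 0.12. Of all tested probes 3.37% were higher and 4.53% lower at that threshold. Hoxb13, a homeobox gene of the prostate epithelium, had 0.79, 1.18 and 1.23 in LSC GFP+ and 0.33, -0.03 and 0.51 in LSC GFP- cells. It was thus higher in every LSC GFP+ sample, opposite in direction to the Svs genes that passed, by 0.80 ± 0.23 (SE, limma unadjusted p = 0.00878, adjusted p = 0.329). Foxa1, a forkhead factor, and Steap2 were also higher, by 0.58 and 0.65. Prom1, Cldn3 and Tmprss2 were lower, with differences of -0.53, -0.76 and -0.54. The luminal keratins Krt8, Krt18 and Krt19 did not pass, with differences of -0.30, -0.22 and -0.24, and Cd24a had -0.18. The androgen-responsive gene Fkbp5 differed by 0.01 (limma unadjusted p = 0.977). Of the 17 genes 5 had r above 0.8 with Svs2 (Krt8, Cd24a, Tmprss2, Prom1 and Cldn3), and 0 with Pbsn. Among all genes 5.6% had such an r with Svs2. Over the list r with Svs2 ran from -0.61 to 0.93, with a median of 0.39.

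Genes that serve the making of secreted proteins in general were compared with the products themselves. Of 13 genes of the secretory pathway, which include the translocon subunit Sec61b, the chaperone Hspa5 and the transcription factor Xbp1, 0 passed in limma at an unadjusted p under 0.05 in either direction, with the replicate block also 0, and the median difference was 0.06. The largest differences in either direction were 0.31 for Dnajc3 and 0.23 for Herpud1 above 0, and -0.16 for Creb3l1 and -0.07 for Ssr4 below it.

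**Figure D5:**
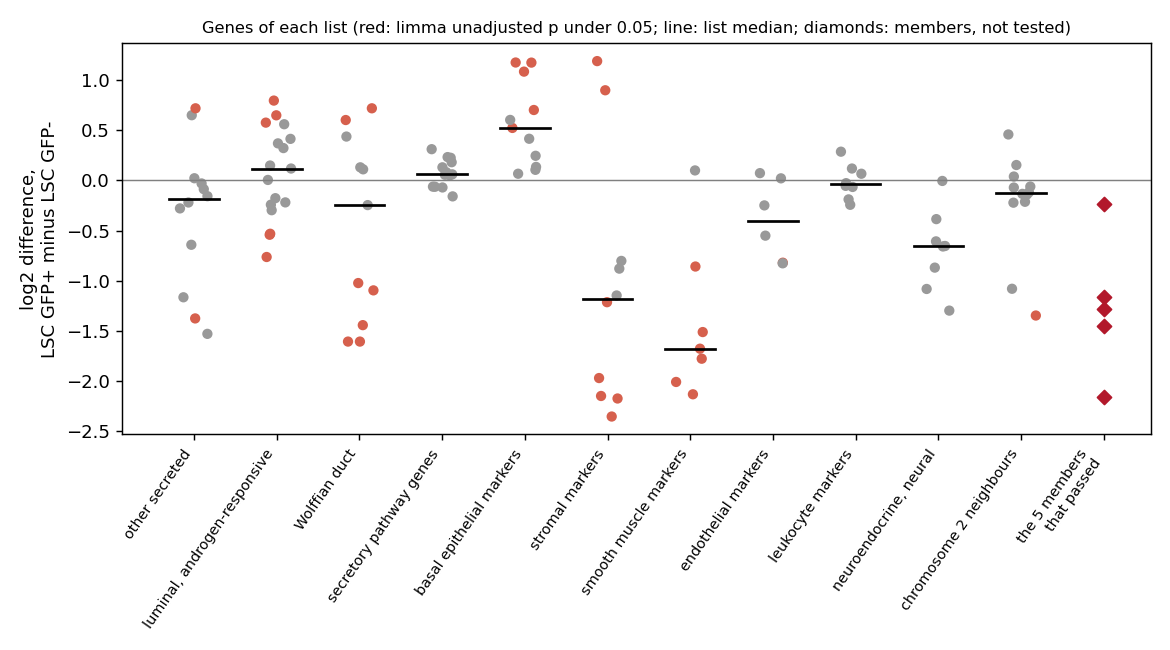
Log2 difference of LSC GFP+ minus LSC GFP- for the genes of each list, 1 probe per gene, with red points for a limma unadjusted p under 0.05, black lines for list medians and diamonds for the 5 secretory genes that passed, which were not tested. Secretory pathway genes lie near 0, and 5 Wolffian duct genes lie below -1 while 2 lie above 0.5 in red.

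Marker lists are given for comparison by their counts in limma at the same unadjusted threshold, at which 4.53% of all tested probes were lower and 3.37% higher. Smooth muscle markers were lower for 6 of 7 tested genes, with the lowest differences for Acta2 (-2.13) and Myh11 (-2.01). Stromal markers were lower for 5 of 10, with Pdgfra (-2.36) and Col1a1 (-2.18) lowest, and Dcn (1.19) and Fbln1 (0.90) were higher. Basal markers were higher for 5 of 11, with the highest differences for Krt14 and Bcl11b (1.18 each). Of 6 endothelial markers 1 was lower, Vwf (-0.82, limma unadjusted p = 0.00644), and Cldn5 had a difference of -0.83 that did not pass. None of the 8 leukocyte markers passed, with differences from -0.24 for Cd14 to 0.29 for Cd79a. Of 8 neuroendocrine, neuronal and glial markers 0 passed without the block and 4 were lower with it, against the 8.05% of all probes.

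The genes whose pattern over the 6 arrays was most like the mean of Svs2, Svs4, Pip and Pbsn, each standardised, were sought among 3450 genes that were above background on all arrays and varied by an SD of at least 0.5. The 10 with the highest r were Glis3 (0.997), Rasl10a (0.997), Qsox1 (0.99), Gm3289 (0.99), Plau (0.99), Tmcc3 (0.99), Dennd2a (0.99), Prlr (0.99), Col26a1 (0.99) and Emx2 (0.99). Their log2 differences lay between -1.61 and -0.74, a direction that follows from the profile they were selected on. The 4 genes themselves had r with that mean of 0.97 (Svs4), 0.95 (Svs2), 0.64 (Pip) and 0.59 (Pbsn), so the mean follows Svs2 and Svs4 more than Pip and Pbsn.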

How the data were processed

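RNA of LSC GFP+ and LSC GFP- cells, 3 samples each, was amplified, labelled with Cy3 and read on 1-colour Agilent arrays. The authors deposited scanner output made, per the file headers, with Feature Extraction 11.0.1.1 (the submitters' notes name 10.7.3.1), with intensity values per spot that are background-subtracted and not normalized between arrays. A table of the whole series holds the same intensity rounded, within 0.496%. Log2 of the processed signal minus the array's 75th percentile was computed here from the deposited intensity, and no spot was saturated. Outlier spots (123 to 154 per array) counted toward the percentile. They were left out of a probe's mean where the probe had another usable spot, and kept where all its spots were outliers. Probes that the software marked well above background throughout the 3 arrays of either population or of both were tested, with limma 3.58.1 in R 4.3.3, two-sided, with Benjamini-Hochberg adjustment over 37008 probes. All 10 genes and 26582 of 55681 probes were matched to RefSeq by accession, and the other probes kept the name of the array design. Gene lists used the brightest tested probe of a gene. Some genes of the luminal and Wolffian duct lists are not reported here and were left out of the lists. Sequence alignments were made with Biopython 1.88.

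The 10 members and the lists were chosen with earlier results of these data known. The rule for named genes took every member with each probe, allowed any gene of the secreted and luminal lists, and took up to 2 with the largest differences each way of other lists, and the 10 genes closest in pattern. Marker genes with small differences were left unnamed. Genes beyond that rule (of the Wolffian duct, locus and marker lists, and the sort markers) were named after their values were seen. Samples of the same replicate number deviated together from their population means (r = 0.43, 0.27 and 0.66 for numbers 1, 2 and 3, each over 0.1), and the numbers therefore served as pairs. Of the different-number pairs, 1 reached 0.22 and the other 5 were negative. Deviations cancel within a population, so positive r for the same numbers make the others negative on average. The negative values are therefore no separate support for pairing. The number of arrays limits the precision. On simulated data with 200 of 37008 probes changed by 2 on the log2 scale, limma found 98% of them unadjusted and 130 after adjustment. Alternatives were normexp (offset 50), quantile and median scaling, the rounded values, 2 other filters, the methods' t-test, the replicate block, the mean over probes and each array left out.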

Additional observations from a re-analysis of the deposited data

How the results depend on the processing

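The number of probes lower in LSC GFP+ cells, 1676, and higher, 1248, became 2979 and 2493 with the replicate block, with 0 after adjustment, beside 1 without the block, and with median scaling 1296 and 1469. They ranged from 1151 to 2785 and from 868 to 1354 when each array was left out. The highest count of lower probes, 2785, came without LSC GFP+ replicate 1. With that block, which uses the pairing of replicate numbers, the other secreted proteins had 4 lower genes in place of 1, and the chromosome 2 neighbours 3 called genes in place of 1. The neighbours had 2 with normexp or with the filter on all 6 arrays, and 0 with median scaling or with the methods' t-test. The luminal genes, 3 lower, had 0 with median scaling and 1 with no filter, and the Wolffian duct genes, 5 lower, had 2 by the methods' t-test. When arrays were left out in turn these counts ran from 1 to 3 for secreted, 0 to 3 for luminal, 3 to 5 for Wolffian duct, 0 for secretory pathway and 0 to 3 for neighbouring genes. Wfdc15b lost its call without LSC GFP+ replicate 1 or 2 or LSC GFP- replicate 2 or 3. The luminal count was 0 without LSC GFP+ replicate 1 or 2 or LSC GFP- replicate 3 and 1 without LSC GFP- replicate 1 or 2. The secreted count was 3 without LSC GFP+ replicate 3 and 2 without LSC GFP- replicate 1 or 2, and the Wolffian duct count was 3 without LSC GFP- replicate 3. The causes were not tested.

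No member gene that passed had a higher mean in LSC GFP+ cells, except that 1 did without LSC GFP- replicate 2 (Pbsn, whose difference ran from -0.474 to 0.028 over the arrays left out), and 2 of all 10 did with no filter, Svs3a (at background on all arrays) and Svs6 (above it on LSC GFP+ replicate 1 alone, and -0.22 without that array). The median over members, -1.28, ran from -1.72 without LSC GFP+ replicate 3 to -0.63 without LSC GFP+ replicate 1. Of 79 values under the other alternatives, 67 stayed within 1.5 times (counts) or within the SD between samples (the median), 12 moved further and 0 reversed. Dim signal limits Svs1, Svs3a, Svs3b, Svs6 and Msmb.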
